A study of Mus musculus with 16 samples.

Results

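The nuclear genes of the mitochondrial respiratory chain were followed across endothelial cells of mouse liver, lung and heart. Members were chosen by symbol: genes starting with Ndufa, Ndufb, Ndufc, Ndufs, Ndufv, Uqcr, Sdh plus a letter from a to d, Cox4 to Cox8 or Atp5, with predicted genes and named pseudogenes left out. The deposited table held 101 such genes among 52636, and 95 of them reached 1 CPM (counts scaled by the effective library size) in at least 2 libraries, as did 15898 genes in all. These 95 comprised 36 subunits of complex I, 4 of complex II, 8 of complex III, 16 of complex IV and 16 of ATP synthase, together 80 subunits, with 8 assembly factors of complex I, 4 of complex II and 3 other products. Of the 6 genes that stayed below the level, Ndufa11b, Ndufb4c, Ndufs6b and Cox6c2 are annotated as processed pseudogenes, and Cox7b2 and Cox8c had no count in any library. The second-highest library of Cox6c2, just below the level, had 0.153 CPM, and that of Cox6b2, just above it, had 1.42 CPM.

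Complexes I and II pass electrons from NADH and succinate to ubiquinone, complex III passes them on to cytochrome c, and complex IV gives them to oxygen. Complexes I, III and IV pump protons across the inner mitochondrial membrane, and ATP synthase uses the returning protons to make ATP. Most subunits are encoded in the nucleus and assembled with a small core encoded by the mitochondrial genome. Endothelial cells make much of their ATP by glycolysis and also use the chain for biosynthesis and signalling.

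The libraries were poly(A) RNA from endothelial cells marked in the living mouse with an injected VE-cadherin antibody and sorted as live, CD45-, CD31+ and VE-cadherin+ cells. Controls were labelled Wild Type and the others Erg and Fli1 double knockout, 2 transcription factors of the ETS family, and the labels give tamoxifen treatment and day 10 after it for both. Liver and lung had 3 libraries per genotype and heart had 2. The labels name no Cre driver, strain or animal of origin and give the age as the day of collection, so p-values measure the spread between these libraries, which may in part be technical. In these sorted samples, less RNA of a gene per cell and fewer cells of a type that expresses it cannot be told apart.

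Total counts ran from 30226340 to 41449054 per library. Erg had 337 to 371 CPM in liver controls and 131 to 165 in knockout-labelled liver, and its log2 change was -1.31 in liver, -0.52 in lung and -0.47 in heart (edgeR quasi-likelihood test, Benjamini-Hochberg adjusted p = 1.54e-05, 0.0231 and 0.0538). Fli1 was not lower: its log2 change was 0.38, 0.69 and 0.02 (adjusted p = 0.1, 0.0131 and 0.978), so the libraries are called knockout-labelled here. Summed over 8 endothelial marker genes, levels were 11990 to 15260 CPM in controls and 7255 to 12040 CPM in knockout-labelled libraries.

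Levels were compared between genes per kilobase of the principal transcript. Averaged over the 6 groups, the highest member was Atp5b, the catalytic beta subunit of ATP synthase, at 262 CPM per kilobase, followed by Cox6a1, the widely expressed form of complex IV subunit VIa, at 219. The highest in complex III was Uqcrh, the hinge protein next to cytochrome c1, at 102, and in complex I it was Ndufa6, an accessory subunit, at 89.2. Sdha led complex II, Ndufaf8 the complex I assembly factors, Sdhaf2, which helps attach FAD to Sdha, those of complex II, and Cox7a2l the other products. Atp5b had 544, 512 and 568 CPM in liver controls, 454, 449 and 432 in lung and 438 and 482 in heart, with 510 to 667, 384 to 460 and 503 and 620 in knockout-labelled libraries. Together the 80 subunits made up 0.374% to 0.541% of all counts.

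Control liver endothelium had the highest summed subunit level. The sums were 5136 to 5430 CPM in the 3 liver controls, 4020 to 4378 in the 3 lung controls and 3674 to 4200 in the 2 heart controls. The liver range lay above both others, and the lung and heart ranges overlapped. Liver was also the highest control tissue for each complex taken alone: complex I had 1460 to 1569 CPM in liver, 1189 to 1296 in lung and 1079 to 1221 in heart, and ATP synthase had 1830 to 1951, 1420 to 1551 and 1370 to 1567. Markers of neighbouring cells also differed: 9 hepatocyte markers summed to 731.9 to 2513 CPM in liver controls and to at most 1.912 in lung and heart controls, and 6 lung epithelial markers to 1895 to 3096 CPM in lung controls. The 7 fibroblast and stellate cell markers summed to 862.2 to 904.1 CPM in heart controls, 339.1 to 648.3 in lung and 38.53 to 56.72 in liver. Their part in the subunit levels was not tested.

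**Figure D1:**
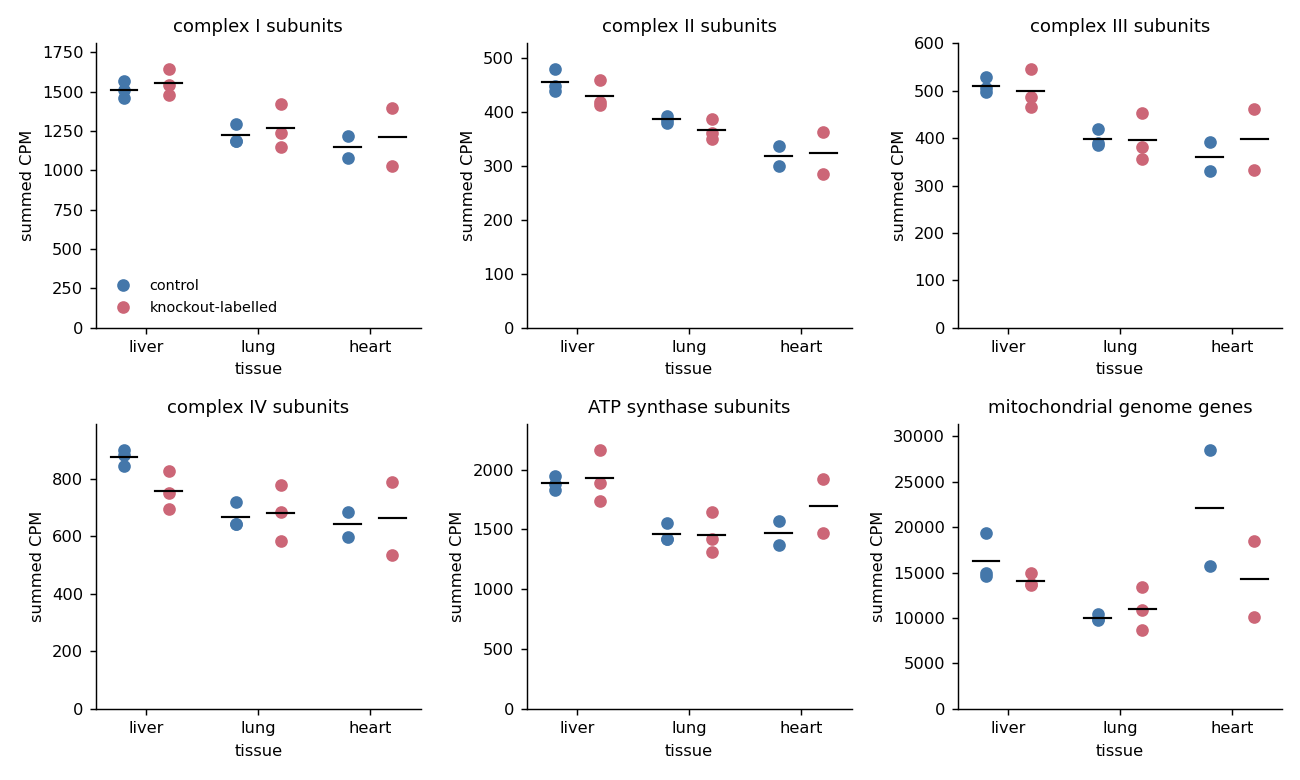
Summed CPM of the subunit genes of each complex and of the 13 protein genes of the mitochondrial genome, by tissue; each point is 1 library and each bar the group mean. Liver controls lie above lung and heart controls in all 5 nuclear panels, and the mitochondrial genome panel has its highest library, 28530 CPM, among the heart controls.

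Between control tissues, 53 of the 95 members differed between heart and liver, 8 higher and 45 lower in heart (edgeR quasi-likelihood test, adjusted p under 0.05), against 47.6% of all genes tested, of which 23.8% were higher and 23.9% lower. The members' median log2 difference was -0.40, and that of all genes was 0. Between lung and liver 33 differed, 5 higher and 28 lower in lung, against 47% of all genes (24.6% higher, 22.4% lower), with a median of -0.31 against 0.05. With upper quartile scaling, which moved the median of all genes by 0.118 and 0.107, these splits were 8 higher and 29 lower in heart, and 8 higher and 18 lower in lung. Heart and lung were closer: 9 members differed, 5 higher and 4 lower in heart, against 29.5% of all genes (13.5% higher, 16.1% lower), with a median of -0.08. Counted by ranges alone, 76 members lay lower in both heart controls than in all liver controls and 10 higher, or 80% and 10.5% against 34.8% and 34.6% of all genes. Likewise 62 lay lower and 8 higher in lung than in liver (29.8% and 32% of all genes), and 29 lower and 12 higher in heart than in lung (30.6% and 28.6%).

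The lower members came from every complex. In heart against liver, 21 of 36 complex I subunits were lower, 3 of 4 of complex II, 5 of 8 of complex III, 5 of 16 of complex IV and 6 of 16 of ATP synthase, but none of the 8 complex I assembly factors. Sdhaf4 and Sdhaf3, assembly factors that help mature succinate dehydrogenase, were among the most lowered, with log2 differences of -1.13 (SE 0.257, adjusted p = 0.0026) and -1.03 (SE 0.256, adjusted p = 0.00469). Atp5h, a peripheral stalk subunit of ATP synthase, had a log2 difference of -0.80 (SE 0.177, adjusted p = 0.00214), but shares 47.9% of its 50-base words with other transcripts. Ndufa8 and Sdhaf3 were lower in lung than in liver (log2 -0.74 and -0.72, edgeR adjusted p = 0.0113 and 0.0155), and Ndufa12 and the assembly factor Ndufaf3 lower in heart than in lung (-0.50 and -0.52, adjusted p = 0.0272 and 0.0485). Sdhaf4 was at 6.17, 7.83 and 7.87 CPM in liver controls and at 3.48 and 3.19 in heart controls, with no overlap. These counts changed with single libraries: without heart control 1, heart control 2 or liver control 3 the heart-to-liver count was 17, 33 or 31. The lung-to-liver count was 19, 15 or 16 without liver control 3, lung control 2 or lung control 3, and the heart-to-lung count was 5 or 4 without heart control 1 or 2.

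Within complex II the subunits had different tissue orders. Sdhb, the iron-sulfur subunit, was at 75.9, 76.2 and 75 CPM in lung controls, above the 55.7, 59.6 and 60.4 of liver and the 46.3 and 50 of heart. It was the one complex II gene higher in lung than in liver (log2 0.37, SE 0.145, adjusted p = 0.0497) and was lower in heart than in lung (-0.65, SE 0.165, adjusted p = 0.00872). Sdha, the flavoprotein subunit, and the membrane anchors Sdhc and Sdhd were lower in lung than in liver, at log2 -0.33, -0.45 and -0.35 (edgeR adjusted p = 0.00861, 0.00798 and 0.047). Sdha was at 234, 241 and 262 CPM in liver controls and 193 to 197 in lung controls.

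Other control differences were of like size. Ndufs8, an iron-sulfur core subunit of complex I, had 55.6, 57.4 and 59.7 CPM in liver and 34.6, 29.7 and 32.2 in lung, a log2 difference of -0.84 (SE 0.146, adjusted p = 0.000305). Cox7a2l, also called SCAF1, a factor that joins complexes III and IV into supercomplexes, had 149, 166 and 175 CPM in liver, 99.1, 87.0 and 93.3 in lung, and 77.4 and 108 in heart. All liver values lay above those of both other tissues. Atp5j, coupling factor 6 of the ATP synthase stalk, went the other way and was highest in heart: 107 and 113 CPM, against 80.7 to 87.7 in liver (log2 0.40, SE 0.133, adjusted p = 0.0234) and 64.3 to 72.6 in lung (0.71, SE 0.133, adjusted p = 0.00112).

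**Figure D2:**
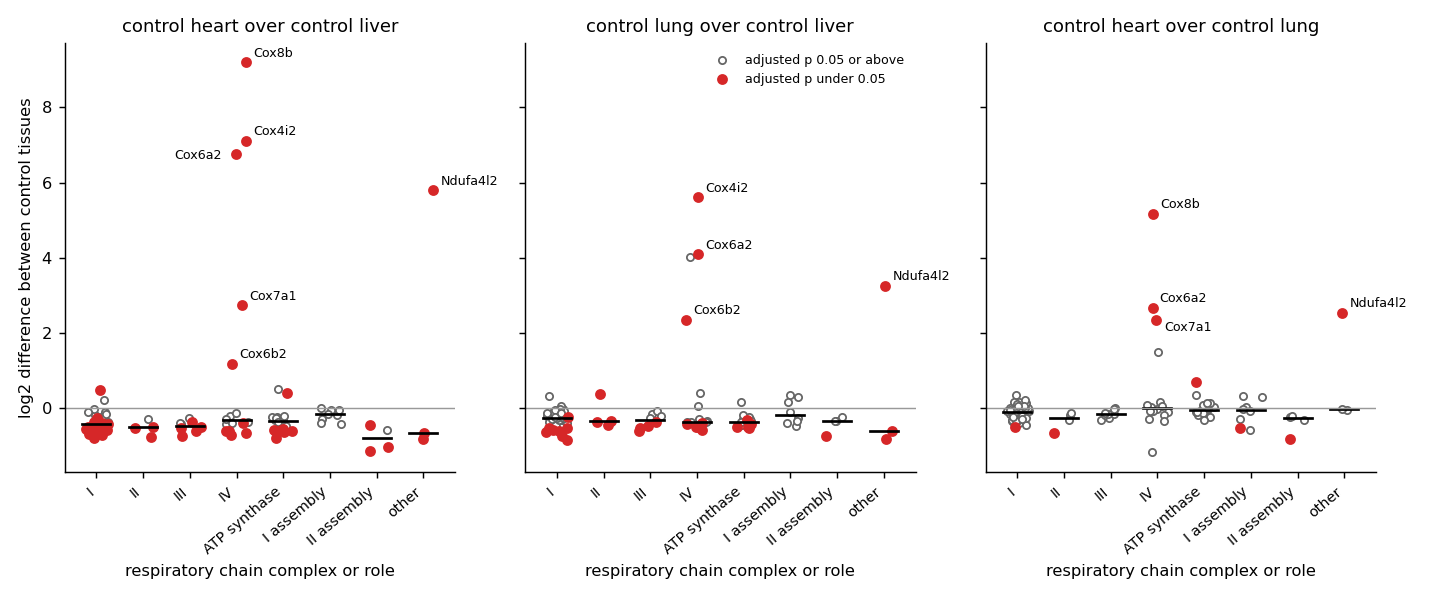
Fitted log2 difference of each of the 95 members between control tissues, by complex or role; filled points have an edgeR adjusted p under 0.05 and bars are medians. Most filled points against liver lie below 0, while Cox8b, Cox4i2, Cox6a2, Cox7a1 and Ndufa4l2 lie far above; Cox8b has no count in liver controls, so its height there depends on the fit and is no measured fold.

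The tissue isoforms of complex IV stood apart from these small differences. Cox4i2, Cox6a2, Cox7a1 and Cox8b are paralogs of the widely expressed Cox4i1, Cox6a1, Cox7a2 and Cox8a; Cox4i2 is known from lung and from oxygen sensing, and the other three from heart and skeletal muscle. Ndufa4l2 is a hypoxia-responsive paralog of Ndufa4, which is now counted as a complex IV subunit, and Cox6b2 is the testis form of Cox6b1.

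Cox4i2 had 0.132, 0 and 0.0911 CPM in liver controls, 4.97, 4.07 and 3.01 in lung and 11.1 and 11.5 in heart. Its groups did not overlap. Its share of the 2 Cox4 genes' CPM per kilobase was at most 0.0948% in liver, 3.3% to 4.66% in lung and 10.4% to 11.6% in heart. It was higher than in liver in both other tissues (log2 7.11 in heart and 5.62 in lung, SE 0.984 and 0.938, adjusted p = 5.48e-05 and 0.000223), while heart and lung differed by 1.49 (SE 0.725, adjusted p = 0.141). Over the 3 liver controls it had 8 counts, and the heart-to-liver ratio was 142 with a 95% counting interval of 71.7 to 330.

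Ndufa4l2 followed the same order, with 0.633, 0.0681 and 0.0911 CPM in liver, 3.92, 2.02 and 2.09 in lung and 13 and 18.2 in heart. All 3 of its tissue differences passed the test (log2 5.80, 3.26 and 2.54 for heart over liver, lung over liver and heart over lung, edgeR adjusted p = 0.000101, 0.00376 and 0.0177). It made up 16.7% to 18.4% of the CPM per kilobase of Ndufa4 and Ndufa4l2 in heart controls. It overlaps Shmt2 on the other strand, and no source used here gives the counting strand.

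The muscle isoforms had their highest control levels in heart. Cox8b had 1.63 and 2.49 CPM in heart, 0, 0.111 and 0.0558 in lung and no count in any liver control. With 3 counts over the liver group put in as a floor, its heart-to-liver ratio was 69.2. The lower end of its counting interval was 55.5. Cox6a2 had 2.90 and 4.41 CPM in heart and 0.305 to 0.872 in lung, with 3 counts in all liver controls together, a heart-to-liver ratio of 123 with a counting interval of 41.5 to 599. Cox7a1 had 2.47 and 3.05 CPM in heart against 0.29 to 0.579 in liver and 0.194 to 1.06 in lung (log2 2.75 and 2.35, SE 0.61 and 0.595, adjusted p = 0.00216 and 0.00871). They remained minor by CPM per kilobase. In heart controls Cox8b was 3.38% to 4.39%, Cox6a2 2.31% to 3.07% and Cox7a1 9.52% to 10.1% of its pair. These intervals and the floor reflect counting error alone.

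Cox6b2 had its highest level elsewhere. Lung controls had 1.19, 1.30 and 1.42 CPM, liver 0.211 to 0.306 and heart 0.406 and 0.748. The lung level was above that of liver (log2 2.36, SE 0.395, adjusted p = 0.00023), and heart was above liver by 1.19 (SE 0.435, adjusted p = 0.0371). Most common partners had their highest levels in liver. Cox4i1 had 142 to 148 CPM in liver controls, 92 to 106 in lung and 88.3 and 104 in heart, and Cox8a had 118 to 125, 90.9 to 99 and 71 and 82.9. Ndufa4 had 75.7 to 79.5, 58.7 to 62.3 and 42.2 and 52.8 CPM, and Cox6b1 65.2 to 72.5, 51 to 60.3 and 49.7 and 54.9. Cox7a2 was the exception, with overlapping ranges of 45.9 to 47.9, 43 to 52.9 and 39.3 to 45.7 between lung and both other tissues.

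Markers of other cells differed between the same tissues. The 14 cardiomyocyte markers summed to 224.9 and 354.4 CPM in heart controls, 10.7 to 15.67 in lung controls and 2.613 to 3.541 in liver controls, where Myl2, Myl3 and Ckm were at 0. The 12 pericyte and smooth muscle markers summed to 1101 and 1191 CPM in heart controls, 122.8 to 134.9 in lung and 189.5 to 223.5 in liver. The 5 skeletal and striated muscle markers summed to 5.515 to 6.529 CPM in heart controls, with Myh4 at 0, and to 0.6468 to 1.054 in liver. Their part in the isoform levels was not tested.

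**Figure D3:**
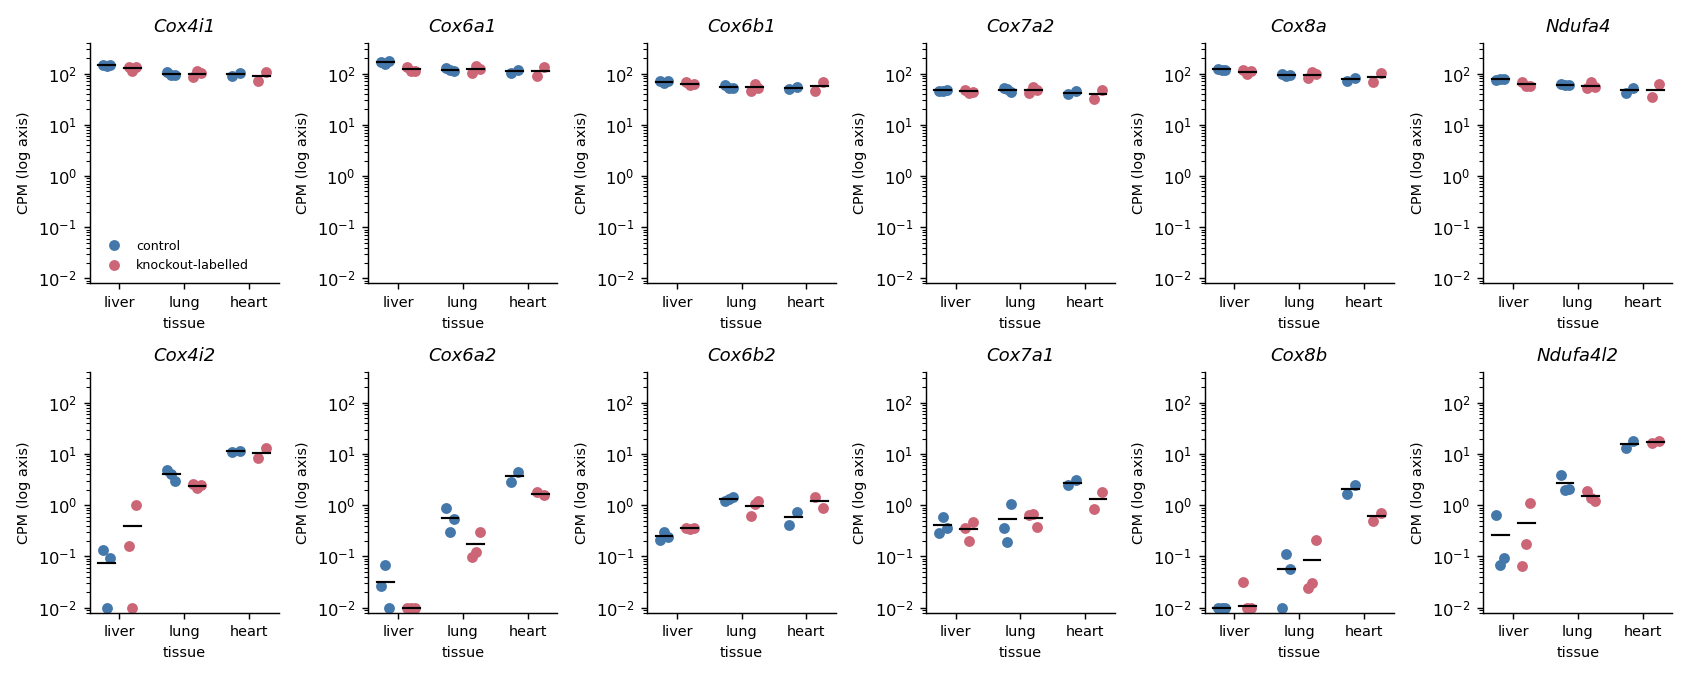
CPM of the common members (upper row) and their tissue-restricted partners (lower row) on a log axis, by tissue; points are libraries, bars are group means, and a library or mean of 0 is drawn at 0.01 CPM. The upper row looks nearly level on this axis, though its control heart-to-liver ratios run from 0.614 (Ndufa4) to 0.912 (Cox7a2). The lower row rises from liver to heart for Cox4i2, Cox6a2, Cox8b and Ndufa4l2.

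In knockout-labelled endothelium, few members changed in any tissue. In liver 4 of 95 passed the test, 2 up and 2 down, which is 4.21% against 19.4% of all genes tested (9.54% up, 9.87% down). In heart 5 passed, 2 up and 3 down, 5.26% against 19.3% (10.2% up, 9.09% down). In lung none passed, against 8.46% of all genes (4.35% up, 4.11% down); 7 members had an unadjusted p under 0.05 by edgeR, and DESeq2 called 3, Cox6a2 and Sdhaf4 down among them. The median log2 change of the 80 subunits was -0.05 in liver, 0.01 in lung and 0.06 in heart, and that of all genes was 0.02, -0.02 and 0.01. The 95% interval of the change lay within 2-fold either way for 87, 88 and 85 of the 95 members in liver, lung and heart, and within 1.5-fold for 66, 75 and 42. In liver 21 members were lower and 8 higher in every knockout-labelled library than in every control, or 22.1% and 8.42%, against 19% and 18% of all genes. In lung 8 were lower and 2 higher in this way (16.1% and 13.3% of all genes), and in heart, with 2 libraries a group, 14 lower and 14 higher (29% and 30%). Other markers moved with the label, in different directions by tissue. Hepatocyte markers summed to 731.9 to 2513 CPM in liver controls and 585.5 to 894.7 in knockout-labelled liver, with overlap. Of these 9 markers 3 fell in liver, and the median log2 change was -1.08. Lung epithelial markers went from 1895 to 3096 CPM in lung controls to 287.3 to 501.9 in knockout-labelled lung (4 of 6 fell), and from 4.991 to 5.958 CPM to 93.21 to 153.9 in heart (4 of 6 rose). Leukocyte markers went from 450.8 to 547.3 CPM to 53.42 to 185.6 in lung, where 1 of 5 tested fell, and from 9.954 to 34.47 CPM to 114.1 to 216.7 in heart, where 3 of 5 rose. The fibroblast sum was 862.2 to 904.1 CPM in heart controls and 1566 to 1726 in knockout-labelled heart, with none of its 7 markers past the edgeR threshold, 3 at an unadjusted p under 0.05 and a median of 0.18. The 6 erythroid markers summed to at most 158.7 CPM in controls and 456.4 in knockout-labelled libraries. Their part was not tested.

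By complex, the medians stayed close to 0. They ran from -0.14 in complex IV to 0.004 in complex II in liver, from -0.02 to 0.03 in lung, and from 0.01 in complex I to 0.18 in ATP synthase in heart. No subunit of complex II or III and no assembly factor of complex I or II passed the edgeR test in any tissue. In liver, lung and heart, an unadjusted p under 0.05 was found for 1, 1 and 1 of the 4 complex II subunits and 1, 0 and 1 of the 8 of complex III. DESeq2 called Sdha and Sdhaf3 lower in liver as well as Sdhaf4 in lung. The complex IV sum in liver was 844 to 900 CPM in controls and 696 to 827 in knockout-labelled libraries, without overlap, and of its 16 genes Cox6a1 alone passed. The ranges for complexes I, II and III and for ATP synthase overlapped between genotypes in liver.

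**Figure D4:**
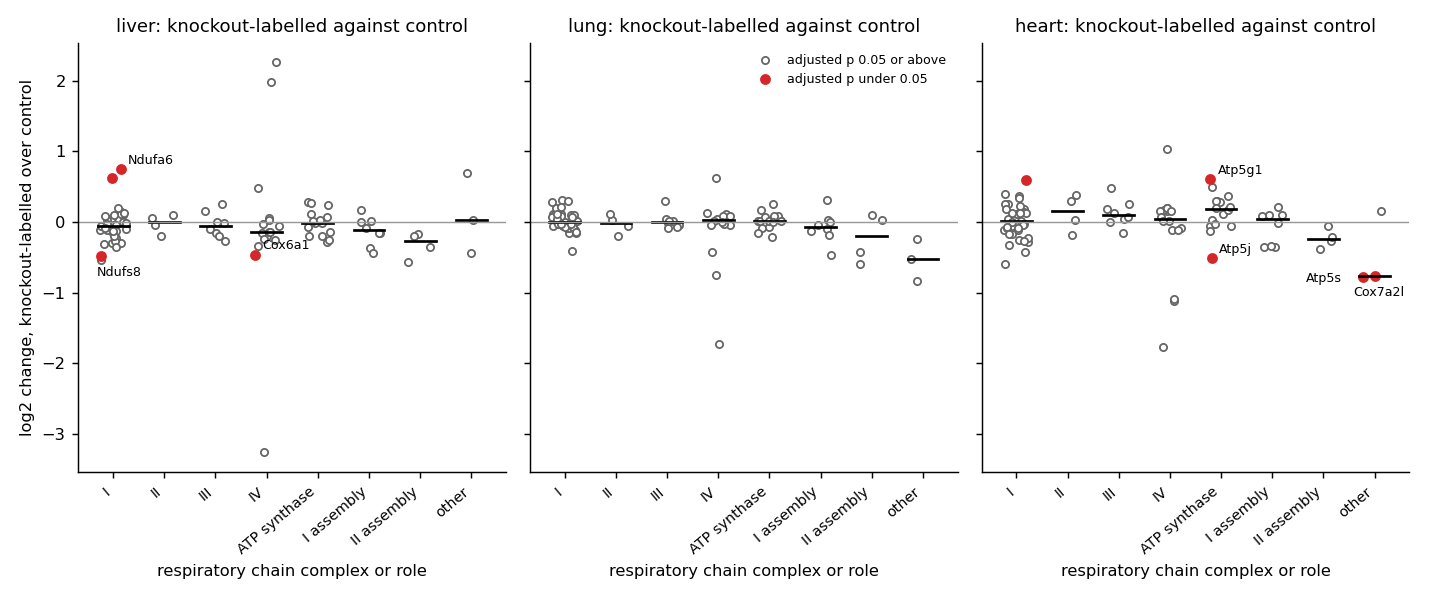
Log2 change of each of the 95 members in knockout-labelled against control libraries, by complex or role and tissue; filled points have an edgeR adjusted p under 0.05, and those described in the text are named, and bars are medians. Filled points number 4 in liver, 0 in lung and 5 in heart, and the outlying open points in complex IV are isoform genes with few counts.

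Ndufa6, a complex I accessory subunit of the LYR family at chr15:82350140-82354322, rose in liver. It had 49.1, 56.4 and 60.0 CPM in liver controls and 82.5, 78.7 and 116 in knockout-labelled liver, a log2 change of 0.74 (SE 0.177, adjusted p = 0.00924). The groups did not overlap, and the call held without any 1 library. In heart it had 37.6 and 47.9 against 27.4 and 42.7 CPM (log2 -0.29, SE 0.217, adjusted p = 0.393), and in lung the log2 value was 0.01. The difference between the heart and liver changes was -1.03 (SE 0.281, adjusted p = 0.037). It was the only member whose change differed between heart and liver, against 8.32% of all genes; none differed between lung and liver (6.2% of all genes) or heart and lung (6.4%), where 5 and 3 members had an unadjusted p under 0.05. The Ndufa6 difference was lost without any 1 of heart controls 1 and 2, heart knockout 1, liver controls 1 to 3, liver knockout 3 or lung controls 2 and 3.

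Ndufs8 and Cox6a1 fell in liver. Ndufs8, at chr19:3908863-3912774, had 55.6, 57.4 and 59.7 CPM in controls and 46.8, 40.5 and 36.7 in knockout-labelled libraries, a log2 change of -0.48 (SE 0.145, adjusted p = 0.0331). Cox6a1, at chr5:115345642-115348981, had 170, 155 and 175 CPM against 137, 112 and 113, a change of -0.46 (SE 0.149, adjusted p = 0.0433). Neither gene's groups overlapped, and control levels of both were lower in lung and heart than in liver. Both calls depended on single libraries: they were lost without any 1 of the 3 liver controls, liver knockout 2 or 3, or lung control 3, and that of Cox6a1 also without either heart control, lung control 1 or 2, or lung knockout 3 (adjusted p up to 0.115 and 0.141 over all settings). In lung and heart their log2 values lay between -0.09 and 0.04.

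In heart, ATP synthase genes accounted for 2 of the 5 calls. Atp5g1 is 1 of the 3 genes for the identical mature c subunit of the membrane rotor and lies at chr11:96068852-96075670. It had 23.2 and 26.5 CPM in controls and 36.6 and 39.2 in knockout-labelled libraries (log2 0.61, SE 0.201, adjusted p = 0.0497). Its sister genes had log2 values of 0.16 (Atp5g2, adjusted p = 0.622) and 0.50 (Atp5g3, adjusted p = 0.0825) in heart. Atp5g2 shares 87.4% of its 50-base words with other transcripts and is uncertain. Atp5j, at chr16:84827866-84835625, had 107 and 113 CPM against 65.4 and 88.6 (log2 -0.52, SE 0.147, adjusted p = 0.0259). It overlaps Gabpa on the other strand, shares 16.3% of its 50-base words with other transcripts, and Gabpa fell in heart too.

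The other heart calls were genes outside the standing subunits. Cox7a2l, at chr17:83501918-83517330, had 77.4 and 108 CPM in controls and 37.4 and 71.6 in knockout-labelled libraries (log2 -0.77, SE 0.232, adjusted p = 0.0332). Atp5s, which encodes coupling factor B, at chr12:69724950-69744660, had 6.65 and 6.51 against 3.50 and 4.17 CPM (log2 -0.78, SE 0.248, adjusted p = 0.0417). The groups did not overlap for either gene. Atp5s was also lower in every knockout-labelled library of liver (7.83, 7.77 and 7.05 against 11.2, 9.23 and 10.4) and lung (3.54, 5.52 and 5.12 against 8.26, 5.62 and 6.41), at log2 -0.45 and -0.52 with adjusted p = 0.141 and 0.139.

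**Figure D5:**
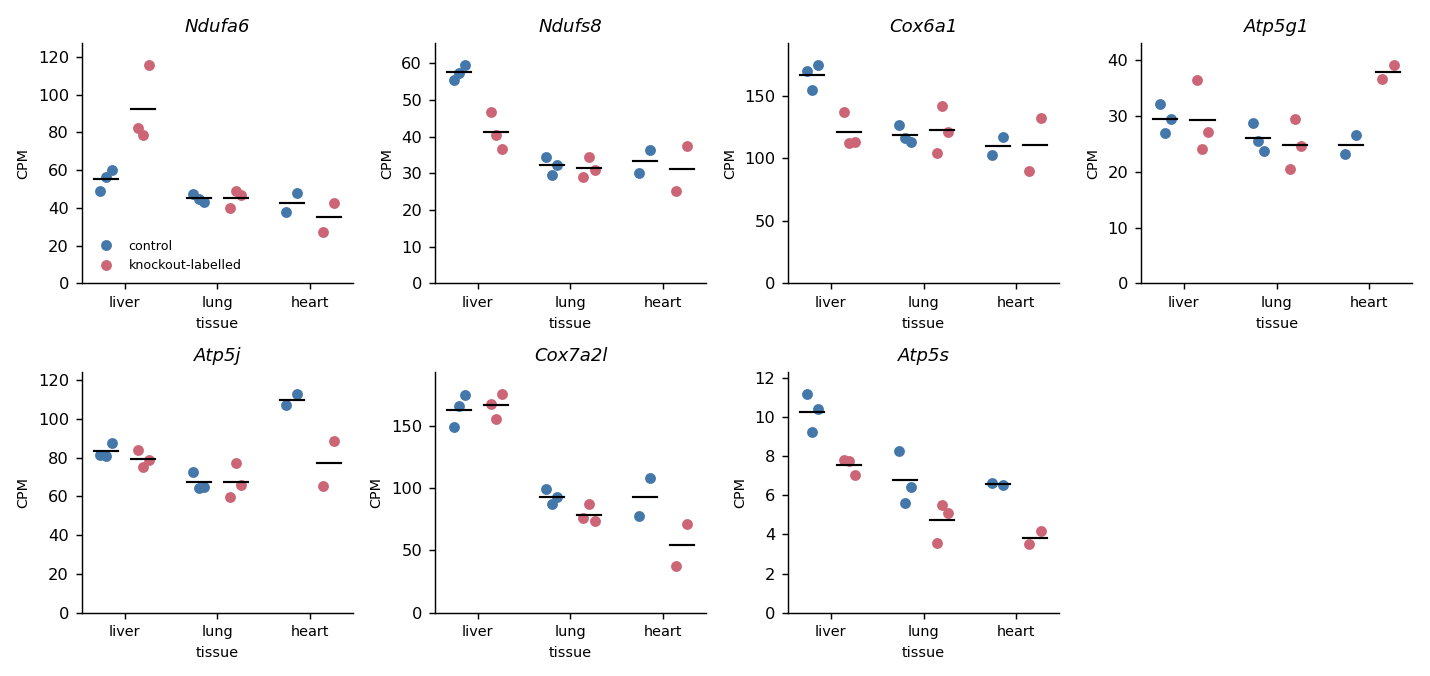
CPM in every library of 7 members that passed the test in liver or heart; points are libraries, bars are group means, and the vertical axes start at 0. Ndufa6 is higher in all 3 knockout-labelled liver libraries than in the liver controls, while the heart points of Cox7a2l and Atp5j are widely spaced.

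The heart calls rested on 2 libraries a group that differed from each other. Relative to the control mean, the median log2 deviation of the 80 subunits was -0.238 in heart knockout 1 and 0.294 in heart knockout 2, on either side of the controls at -0.097 and 0.097. Without heart knockout 1, 6 members passed, all of them up, with Atp5g3, Ndufv2, Sdhb, Sdhc and Uqcrq among them. Without heart knockout 2, 6 passed as well, 1 up and 5 down (Atp5j, Cox7a2l, Ndufb10, Ndufb5 and Ndufc2). The subunit median was 0.318 without the first and -0.245 without the other, against 0.064 with both. With upper quartile scaling 7 passed, 2 up and 5 down.

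Single libraries also decided the other heart calls. Those of Atp5g1 and Atp5s were lost without either heart control, either heart knockout, any liver control or lung control 3, and that of Atp5g1 also without lung control 1 or 2 or lung knockout 3. The call of Atp5j was lost without either heart control or heart knockout 1, and that of Cox7a2l without heart control 2, heart knockout 1 or lung control 3. Adjusted p for these 4 genes reached 0.229 to 0.283. The count of heart calls was 1 without heart control 2 2 without heart control 1 or lung control 3, and 3 without any 1 liver control. Heart knockout 2 had 0.768 CPM of Xist against 701 to 949 in the other 3 heart libraries, so it came from a male and had the highest subunit levels in heart. In liver and lung the number 2 library of each group had Xist below 1 CPM, and its subunit deviation was -0.024 and -0.145 in liver (control and knockout) and -0.045 and 0.192 in lung. The part of sex was not tested.

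The tissue isoforms had no called change. In heart, Cox8b had 1.63 and 2.49 CPM in controls and 0.489 and 0.717 in knockout-labelled libraries (log2 -1.77, SE 0.892, adjusted p = 0.195). Cox6a2 had 2.90 and 4.41 against 1.79 and 1.56 (-1.13, SE 0.615, adjusted p = 0.231), and Cox7a1 2.47 and 3.05 against 0.832 and 1.77 (-1.09, SE 0.646, adjusted p = 0.267). All 3 were lower in each knockout-labelled heart library than in each control. The cardiomyocyte marker sum was lower there too, at 159 and 183.4 CPM against 224.9 and 354.4. Of those 14 markers 6 fell, where 9.09% of all genes did. In lung the marker sum was 25.08 to 161.1 CPM in knockout-labelled libraries against 10.7 to 15.67 in controls. There 1 of the 14 rose and none fell, where 4.35% and 4.11% of all genes did. In lung 4 of these markers had an unadjusted p under 0.05 by edgeR, and the median log2 change was -0.297. Cox6a2 had a log2 value of -1.73 in lung. The part of these markers in the isoform values was not tested.

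Cox4i2 and Ndufa4l2 stayed at their heart levels. Cox4i2 had 8.32 and 13 CPM and Ndufa4l2 16.7 and 17.9 in knockout-labelled heart, overlapping the controls. In knockout-labelled liver, library 3 had 1.02 CPM of Cox4i2 and 1.12 of Ndufa4l2, while the other two had 0.161 and 0 of the former and 0.0645 and 0.174 of the latter. The Cox4i2 value in liver (log2 2.26, SE 1.02, adjusted p = 0.144) passed with DESeq2 (adjusted p = 0.0382) or without liver knockout 2 (2.86 by edgeR, adjusted p = 0.0192). Without liver knockout 3 it was -0.03 (adjusted p = 1), so the value rested on that library. The pericyte and smooth muscle markers summed to 426.1 to 976.7 CPM in knockout-labelled liver against 189.5 to 223.5 in controls. Of these 12 markers 1 rose, where 9.54% of all genes did, and 3 had an unadjusted p under 0.05 by edgeR. Their median log2 change was 1.36, and their part was not tested.

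Other genes of oxidative metabolism gave the following counts. None of the 11 tested protein genes of the mitochondrial genome passed in any tissue (edgeR), with medians of -0.07, -0.03 and -0.77 in liver, lung and heart and 0, 1 and 5 genes at an unadjusted p under 0.05. Their sum was 15708 and 28530 CPM in heart controls and 10102 and 18477 in knockout-labelled heart, which overlap. Heart controls were higher than lung controls for 6 of the 11 (13.5% of all genes) and than liver controls for 4 (23.8% of all genes), with none lower. Mt-Nd5, a proton-pumping subunit of complex I, had 1300 and 2790 CPM in heart controls against 493 to 766 in lung (log2 1.65, SE 0.351, adjusted p = 0.00281). Mt-Co2, mt-Co3, mt-Atp6, mt-Nd3 and mt-Nd4l share 98.0% or more of their 50-base words with other transcripts and are listed near 0.

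Outside the chain, 5 of the 13 tricarboxylic acid cycle genes changed in heart, where 19.3% of all genes did. Cs, Idh3a, Dlst and Mdh2 rose and Idh3b fell, and in liver Mdh2 alone rose. Mdh2, mitochondrial malate dehydrogenase, had 104 and 110 CPM in heart controls and 160 and 178 in knockout-labelled heart, and in liver 104, 99.0 and 105 against 174, 149 and 165 (log2 0.66 in both, edgeR adjusted p = 0.00206 and 0.000341). Of 77 tested mitochondrial ribosomal protein genes 9 rose in heart and 4 in liver, where 10.2% and 9.54% of all genes rose, with medians of 0.17 and 0.06, and none passed in lung, where 4 had an unadjusted p under 0.05. Of the 80 cytosolic ribosomal protein genes tested, 3 rose in liver and 1 in heart, where 9.54% and 10.2% of all genes rose. None of them passed in lung, where 5 had an unadjusted p under 0.05 by edgeR. Their medians were 0.193 in liver, -0.159 in lung and -0.155 in heart. Neither cytochrome c (Cycs), its partner Cyc1, nor any of 11 tested complex IV assembly genes passed in any tissue (edgeR). Unadjusted p was under 0.05 for 1 of the first pair, in heart, and for 2, 1 and 1 of the assembly genes in liver, lung and heart.

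Cytosolic ribosomal genes were also lower against liver: 65 of 80 were lower in lung than in liver controls (22.4% of all genes) and 47 lower in heart (23.9%), with 1 higher, at medians of -0.69 and -0.54. Mitochondrial ribosomal genes had 39 of 77 lower and 1 higher in heart than in liver, with a median of -0.40.

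Among 13 regulators of mitochondrial gene expression, Gabpb1 fell in all 3 tissues. It encodes the beta subunit of nuclear respiratory factor 2, whose alpha subunit Gabpa binds DNA as an ETS protein. Gabpb1 had 50.6 to 54.3 CPM in liver controls and 26.0 to 33.0 in knockout-labelled liver, 49.2 to 58.1 against 31.8 to 40.3 in lung, and 51.4 and 60.2 against 32.9 and 33.6 in heart. No group overlapped, and the log2 changes were -0.82, -0.60 and -0.75 (SE 0.118, 0.118 and 0.144, edgeR adjusted p = 0.000279, 0.00648 and 0.00299). Gabpa fell in heart (log2 -0.46, SE 0.106, adjusted p = 0.00865). In lung Tfb1m, a mitochondrial rRNA methyltransferase, fell and Gabpb2 rose. Nrf1, Esrra, Yy1 and Tfam had no called change, and the coactivator Ppargc1a was at 1.15 CPM on average in heart controls and 0.258 in knockout-labelled heart (adjusted p = 0.104).

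Promoters from the RefSeq table (GRCm38.p6) are shown for the 4 called members with a match to the binding motifs of these regulators, and for Cox8a and Cox8b as a common and a restricted isoform. Each runs from 250 bases before to 50 after the annotated start, 5′ to 3′ on the gene's strand; all 6 genes lie on the minus strand. Capitals mark matches on either strand to CCGGAAG (ETS), GCGC, any base, TGCGC (NRF1), AANATGGCG (YY1) or AAGGTCA (ERR). The windows are chr19:3912725-3913024 for Ndufs8, chr5:115348909-115349208 for Cox6a1, chr15:82354242-82354541 for Ndufa6, chr16:84834927-84835226 for the first of 2 Atp5j starts, chr19:7217567-7217866 for Cox8a and chr7:140900397-140900696 for Cox8b.
Ndufs8: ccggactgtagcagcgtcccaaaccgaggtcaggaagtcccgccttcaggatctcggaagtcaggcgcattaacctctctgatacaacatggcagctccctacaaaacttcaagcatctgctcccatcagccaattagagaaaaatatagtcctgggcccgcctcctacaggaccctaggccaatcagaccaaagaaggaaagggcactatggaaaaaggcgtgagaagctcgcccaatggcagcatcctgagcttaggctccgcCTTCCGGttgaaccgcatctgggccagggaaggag
Cox6a1: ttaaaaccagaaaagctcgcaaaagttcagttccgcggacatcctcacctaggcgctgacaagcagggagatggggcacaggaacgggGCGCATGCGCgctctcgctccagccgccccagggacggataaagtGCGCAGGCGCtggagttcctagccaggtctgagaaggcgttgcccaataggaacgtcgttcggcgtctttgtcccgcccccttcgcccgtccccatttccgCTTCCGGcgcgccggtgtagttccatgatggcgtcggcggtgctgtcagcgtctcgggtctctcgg
Ndufa6: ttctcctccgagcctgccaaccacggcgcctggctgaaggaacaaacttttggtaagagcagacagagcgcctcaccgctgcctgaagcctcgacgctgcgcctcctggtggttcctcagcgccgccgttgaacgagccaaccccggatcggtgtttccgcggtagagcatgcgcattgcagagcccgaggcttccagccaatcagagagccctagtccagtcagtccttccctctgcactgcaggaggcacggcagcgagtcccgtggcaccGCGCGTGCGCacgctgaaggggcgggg
Atp5j: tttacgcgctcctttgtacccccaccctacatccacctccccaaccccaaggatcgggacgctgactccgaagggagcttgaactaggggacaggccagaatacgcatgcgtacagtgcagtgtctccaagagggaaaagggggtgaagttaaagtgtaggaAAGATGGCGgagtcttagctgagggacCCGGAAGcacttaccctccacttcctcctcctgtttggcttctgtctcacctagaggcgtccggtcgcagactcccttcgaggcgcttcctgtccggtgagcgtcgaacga
Cox8a: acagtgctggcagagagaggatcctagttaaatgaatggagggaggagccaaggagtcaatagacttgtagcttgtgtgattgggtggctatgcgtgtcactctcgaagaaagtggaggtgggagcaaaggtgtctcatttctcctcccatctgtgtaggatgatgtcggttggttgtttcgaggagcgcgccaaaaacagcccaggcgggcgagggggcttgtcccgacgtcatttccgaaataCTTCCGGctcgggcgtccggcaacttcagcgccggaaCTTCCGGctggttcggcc
Cox8b: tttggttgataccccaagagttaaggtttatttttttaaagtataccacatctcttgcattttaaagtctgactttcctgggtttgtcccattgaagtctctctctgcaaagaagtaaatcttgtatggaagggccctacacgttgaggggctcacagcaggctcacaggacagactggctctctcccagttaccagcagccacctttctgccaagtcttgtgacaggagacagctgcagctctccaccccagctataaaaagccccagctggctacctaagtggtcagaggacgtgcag

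Counted from the start with no position 0, Ndufs8 had an ETS match at 16 and Cox6a1 had one at -16 with NRF1 matches at -162 and -117. Ndufa6 had an NRF1 match at 24, and Atp5j had YY1 and ETS matches at -88 and -61. Cox8a had ETS matches at -5 and 33, and these letters did not occur in the Cox8b window, nor in those of Cox7a2l, Atp5g1, Atp5s and the second Atp5j start. The NRF1 letters can match both strands at 1 place, as at -162 in Cox6a1. A match is a description of letters, not of a bound site.

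Of the 101 members, 80 had a promoter entry. Over all 32851 windows in the table, 8.86% held the ETS letters, 4.6% the NRF1, 2.38% the YY1 and 4.72% the ERR letters. Among the 79 of these that were tested, 26.6% had an ETS match against 16.9% of the 13030 tested genes with an entry, 26.6% against 9.5% had an NRF1 match, 15.2% against 4.9% a YY1 match and 10.1% against 4.4% an ERR match. The 21 tested members with an ETS match had median log2 changes of -0.15 in liver, 0.01 in lung and 0.01 in heart, with 2 called down in liver (Ndufs8 and Cox6a1) and 1 in heart (Atp5j). The 58 without one had medians of -0.05, -0.03 and 0.10, with Ndufa6 up in liver and Atp5g1 up and Cox7a2l and Atp5s down in heart. Among all tested genes, 18.3% of those with the ETS letters and 22.0% of those without were called in liver, and 18.8% and 21.9% in heart.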

How the data were processed

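RNA-seq counts per gene were deposited by the authors as 1 table for the series. The submitters' processing notes name FastQC 0.11.5, STAR 2.7.6a and GRCm38. No source used here gives the counter, the annotation or the strand setting, or says which of the 2 kits in the labels' protocols made which library. Gene positions and transcript lengths are from GENCODE M21.

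Counts were tested with edgeR 4.0.16 (R 4.3.3, limma 3.58.1): TMM factors (0.916 to 1.07), filterByExpr (minimum count 10, minimum total 15), 1 quasi-likelihood fit over 16 libraries in 6 groups, and Benjamini-Hochberg adjustment over 19646 genes at 0.05. Per-library deviations used log2(CPM + 0.5). Intervals are 95%. The procedure was tested on simulated data. DESeq2 1.42.0, other scalings, no filter, fewer groups, replicate blocks and leaving out each library were the alternatives.

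Members and lists were chosen with earlier results of these data known. Named with values were isoform pairs, called members, the highest per role, the largest control tissue differences, differences in knockout effect and the members at the level threshold. Sdhc, Sdhd, members called only under alternatives and the regulators without a call were added after their values were seen. The values of 1 called member are not reported here, and it is included in the counts.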

Additional observations from a re-analysis of the deposited data

Results flagged for a closer look

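The knockout-labelled change of Ndufa6 differed between heart and liver by -1.03 on the log2 scale (SE 0.281, edgeR interaction, adjusted p = 0.037). Control and knockout-labelled means moved apart in liver, where all 3 knockout-labelled libraries were above all 3 controls, while in heart the ranges overlapped.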

How the results depend on the processing

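Signs were compared for the knockout-labelled changes of members followed singly, and not for the control tissue differences. None of these changes called with all libraries had the other sign under an alternative. Among values without a call, 107 had the other sign, none past the threshold. The heart subunit median was 0.064 with all libraries, -0.245 to 0.318 when 1 was left out and -0.124 with a block for the number in the descriptions. Of the values for single members under the alternatives, 2303 kept their side of the threshold, 12 passed it newly and 56 lost it. Members called numbered 8 in liver with DESeq2 and 8 with the compared groups alone, against 4. In lung they numbered 1 with DESeq2 size factors and 3 with the DESeq2 test, against 0. In heart they numbered 2 without a filter and 2 with the compared groups alone, against 5. Between lung and liver controls, 62 differed when the compared groups were fitted alone, against 33. For the heart-to-liver difference in knockout change the counts were 0 with the compared groups alone, against 1. The cause was not tested. Leaving out each library in turn gave 2 to 5 calls in liver, 0 to 1 in lung and 1 to 6 in heart. For control tissues it gave 17 to 58 (heart and liver), 4 to 13 (heart and lung) and 15 to 44 (lung and liver). For differences in knockout change it gave 0 to 1 (lung and liver), 0 to 2 (heart and liver) and 0 to 3 (heart and lung).

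Deviations of control and knockout-labelled libraries sharing a title number correlated at -0.0102, 0.311 and 0.129 in liver and -0.108, -0.093 and 0.0453 in lung. In heart both values were 0.108, equal by construction with 2 libraries a group, and the second pair had different numbers in the descriptions. The number 2 libraries of liver and lung shared low Xist. These correlations do not decide whether the numbers pair libraries. The labels do not say that they do, so the main fit had no block. With a replicate block for the number in the titles, heart had 3 calls and the heart-to-liver difference 2. With a block for the number in the descriptions, they had 1 and 0. With 2 libraries a group, heart intervals are the widest, and isoforms with few counts are limited by depth.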
